A study of Mus musculus with 23 samples.

Results

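The D cyclins (Ccnd1, Ccnd2, Ccnd3), the kinases they activate (Cdk4, Cdk6), inhibitors of those kinases (Cdkn1a, Cdkn1b), the pocket proteins the kinases phosphorylate (Rb1, Rbl2) and the transcription factor E2f1 were examined in mouse hippocampus. These 10 genes were taken by name, of 45706 genes in the count table, and all 10 passed the filter on low counts, of 15828 genes tested. RNA sequencing was done on hippocampus of female mice of 2 genotypes, with an intact Ins2 gene (Ins2+/+, WT, n = 12 libraries) or without it (Ins2-/-, KO, n = 11 libraries). Ins2 encodes one of the insulins of the mouse. Age, strain, treatment and the way the deletion was made are not given in the sources used here. Where libraries of a genotype do not come from separate animals, the p-values measure the spread between samples alone. Ccnd1 was selected on its lower level in KO in these same libraries, and the other 9 were chosen by name as its partners, so the Ccnd1 difference between genotypes is described and not tested. The question was whether the other genes were higher where Ccnd1 was lower.

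Cells leave the G1 phase when D cyclins bind and activate CDK4 or CDK6, which phosphorylate RB1 and its relatives and so release E2F transcription factors that switch on genes for DNA synthesis. CDKN1A (p21) and CDKN1B (p27) bind cyclin and kinase complexes and restrain them. Most neurons of the adult hippocampus do not divide, and dividing progenitors are found in the dentate gyrus, where cyclin D2 is known to be needed for adult neurogenesis. Cyclin D1 is also made in cells that do not divide.

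The 3 D cyclins share a short element at the start of the protein, Leu-X-Cys-X-Glu, with which they bind the RB1 family. The sequences below show that element in each gene, because it is common to all 3 and Ccnd2 and Ccnd3 are the genes asked about as substitutes. They are the first 60 coding bases from GENCODE M21 transcripts (GRCm38), with the 5 codons of the element in capitals, which are codons 5 to 9 in Ccnd1 and codons 3 to 7 in Ccnd2 and Ccnd3. The Ccnd1 stretch lies at chr7:144939634-144939693 (minus strand), that of Ccnd2 at chr6:127150714-127150773 (minus strand) and that of Ccnd3 at chr17:47593655-47593714 (plus strand), each in the gene's first coding exon.
Ccnd1: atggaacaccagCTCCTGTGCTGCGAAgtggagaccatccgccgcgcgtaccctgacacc
Ccnd2: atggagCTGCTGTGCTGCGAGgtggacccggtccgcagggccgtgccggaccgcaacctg
Ccnd3: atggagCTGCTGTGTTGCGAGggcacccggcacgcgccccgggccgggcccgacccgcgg
Over their aligned coding bases Ccnd1 and Ccnd2 were 72.4% identical, Ccnd1 and Ccnd3 68.8%, and Ccnd2 and Ccnd3 70.7%. A search of all annotated transcripts found 0 pairs of D cyclins with a match of at least 90% identity over at least 100 bases.

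Library totals were 13792274 to 22953261 counts. Ins2 had 0 counts over all KO libraries, which allows up to 0.0156 CPM (counts per 1000000 counts of the library), and 26 counts in WT, found in 7 libraries, with 18 of them in WT library 17. Libraries differed in the tissue parts they held. The summed level of 8 choroid plexus genes was 4639 to 28918 CPM in 5 libraries (WT 14, WT 17, KO 2, KO 6 and KO 12), while the other 18 had 162 to 373 CPM. KO library 8 stood apart. Its 12 hypothalamic genes summed to 1422 CPM (0.653 to 5.34 CPM in the other 22), its 8 dentate granule cell genes to 104 CPM (355 to 744) and its 5 CA1 genes to 149 CPM (305 to 597). The library labelled KO 8 therefore goes against its hippocampus label, and results that rest on it are given with and without it.

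Ccnd1 (ENSMUSG00000070348) encodes cyclin D1. The gene spans chr7:144929931-144939925 (GRCm38, minus strand), and 2.19 Mb separate its nearer end from that of Ins2. Its level ran from 46.7 CPM in WT library 23 to 72.0 CPM in WT library 24, with a median of 65.5 CPM. In KO it ran from 23.2 CPM in library 22 to 31.1 CPM in library 16, with a median of 28.2 CPM. All 11 KO libraries were below every WT library. The means were 62.4 ± 7.39 CPM (SD, n = 12) and 28.0 ± 2.56 CPM (SD, n = 11), so that KO held 44.9% of the WT level. The log2 fold change was -1.15 (SE 0.0661, 95% interval -1.29 to -1.02). Among all genes tested 0.0126% had KO and WT libraries that did not overlap, and 0.0126% (0.00632% in each direction for both counts) were called at a Benjamini-Hochberg adjusted p below 0.05 by edgeR's quasi-likelihood test. Since Ccnd1 was chosen for this difference, nothing is read from those shares. In CPM, KO library 8 did not stand apart for Ccnd1, at 30.5 CPM. In bulk tissue, fewer cells that make a transcript and less transcript per cell cannot be told apart.

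**Figure D1:**
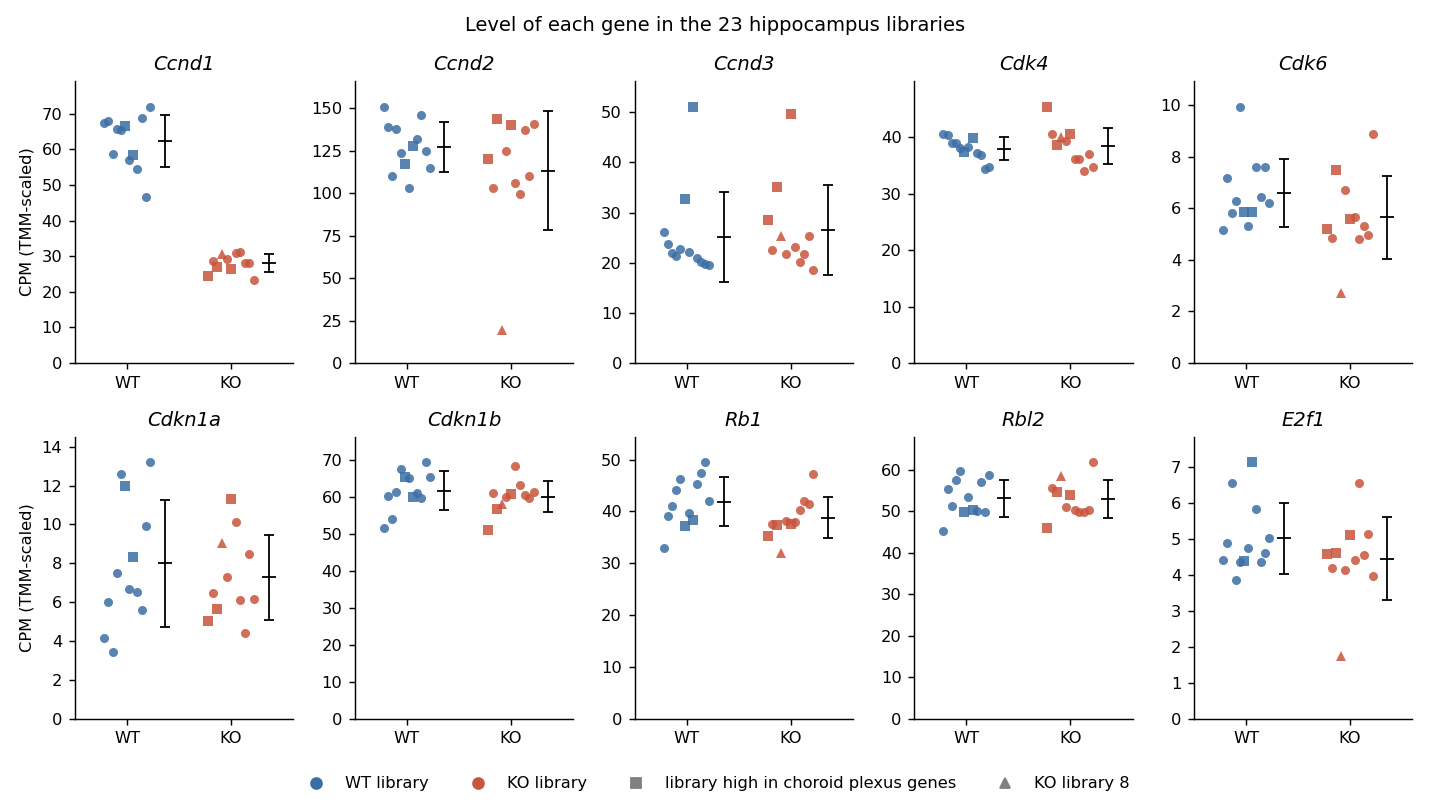
Level of each of the 10 genes in CPM (vertical axes, from 0) in the 12 WT and 11 KO libraries, with 1 point for each library and the mean ± SD as a bar at its right. The genotypes separate in the Ccnd1 panel and overlap in the other 9; Ccnd3 is highest in the libraries drawn as squares, and Ccnd2, Cdk6, Rb1 and E2f1 are lowest in KO library 8.

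None of the 9 other genes was called. With edgeR's quasi-likelihood test, 0 of 9 had an adjusted p below 0.05, beside 0.0126% of all genes tested (DESeq2 and voom each called 4 of 15828). At so low a share, 0 of 9 says little about these genes in particular. An unadjusted edgeR p below 0.05 was found for 0 of 9, beside 5.74% of all genes tested. DESeq2 also gave 0 at both thresholds, where 3.84% of all genes were higher and 2.32% lower at an unadjusted p below 0.05. limma voom with quality weights gave 0 adjusted and 1 unadjusted, Cdk6, where 7.54% of all genes were higher and 10% lower. With 1 library left out, edgeR gave an unadjusted p below 0.05 for Cdk6 and Rb1 without KO library 22 and for Rb1 without WT library 1. For each of the 9, KO and WT libraries overlapped, as they did for all but 0.0126% of genes tested. Log2 fold changes were above 0 for 2 and below 0 for 7, with a median of -0.11, beside a median of 0.003 over all genes tested, of which 51% were above 0. Without KO library 8 the median of the 9 was -0.052. No interval among the 9 reached a doubling or a halving.

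**Figure D2:**
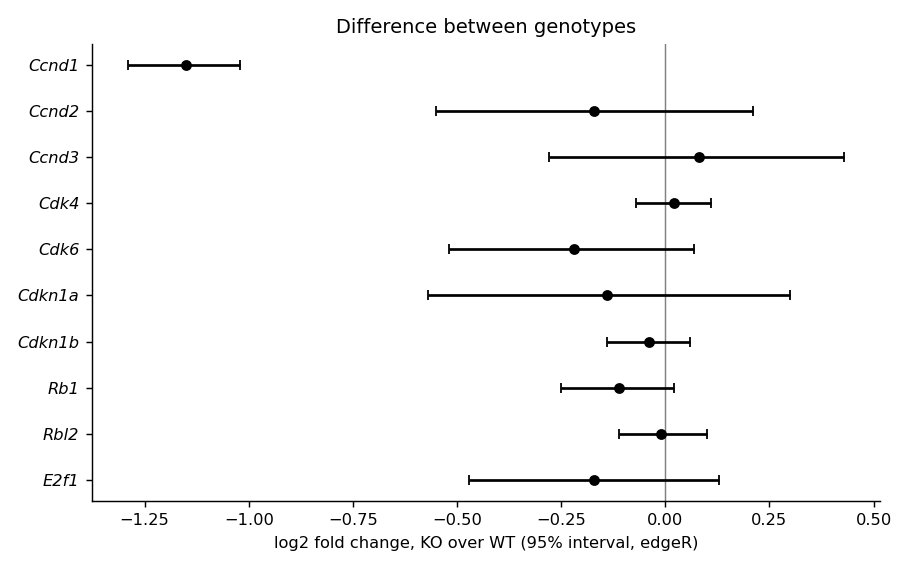
Log2 fold change of KO over WT (horizontal axis) with its 95% interval from edgeR for each gene. The interval of Ccnd1 runs from -1.29 to -1.02, and the intervals of the other 9 genes include 0 and end at or below 0.43.

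Ccnd2 encodes cyclin D2, the D cyclin of dentate progenitors. WT libraries held 103 to 151 CPM (median 127 CPM) and KO libraries 19.6 to 144 CPM (median 120 CPM), and 9 of 11 KO libraries lay within the WT range. The lowest value was that of KO library 8. The other 22 libraries were at 99.3 to 151 CPM. The log2 fold change was -0.17 (SE 0.184, interval -0.55 to 0.21, edgeR adjusted p = 0.832), and -0.052 without KO library 8. The summed dentate granule cell genes were at 592 ± 116 CPM in WT (SD, n = 12), 465 ± 153 CPM in KO (SD, n = 11) and 501 ± 101 CPM in KO without library 8, the lowest of the 23. With KO library 8 included, the 8 dentate genes had a median log2 fold change of -0.32 with 0 called by edgeR, beside 0.0126% of all genes tested. That median was not computed without KO library 8. The part of the dentate genes in the Ccnd2 value was not tested. The interval with all libraries ends at a fold of 1.16.

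Ccnd3 encodes cyclin D3. WT libraries held 19.5 to 51.1 CPM (median 22.1 CPM) and KO libraries 18.6 to 49.7 CPM (median 23.1 CPM). The 5 highest libraries were WT library 17 (51.1 CPM), KO library 12 (49.7 CPM), KO library 6 (35.0 CPM), WT library 14 (32.6 CPM) and KO library 2 (28.6 CPM). These are the 5 libraries rich in choroid plexus genes, and the other 17, KO library 8 aside, held 18.6 to 26.1 CPM. The log2 fold change was 0.08 (SE 0.171, interval -0.28 to 0.43, edgeR adjusted p = 0.919). It was -0.059 without KO library 12 and 0.22 without WT library 17. Without the 5 choroid-rich libraries and KO library 8 it was 0.0039, with a mean of 21.8 ± 2.01 CPM (SD) over 10 WT libraries and 21.9 ± 2.15 CPM over 7 KO libraries. The genotypes thus had nearly the same Ccnd3 level in libraries with little choroid plexus RNA.

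**Figure D3:**
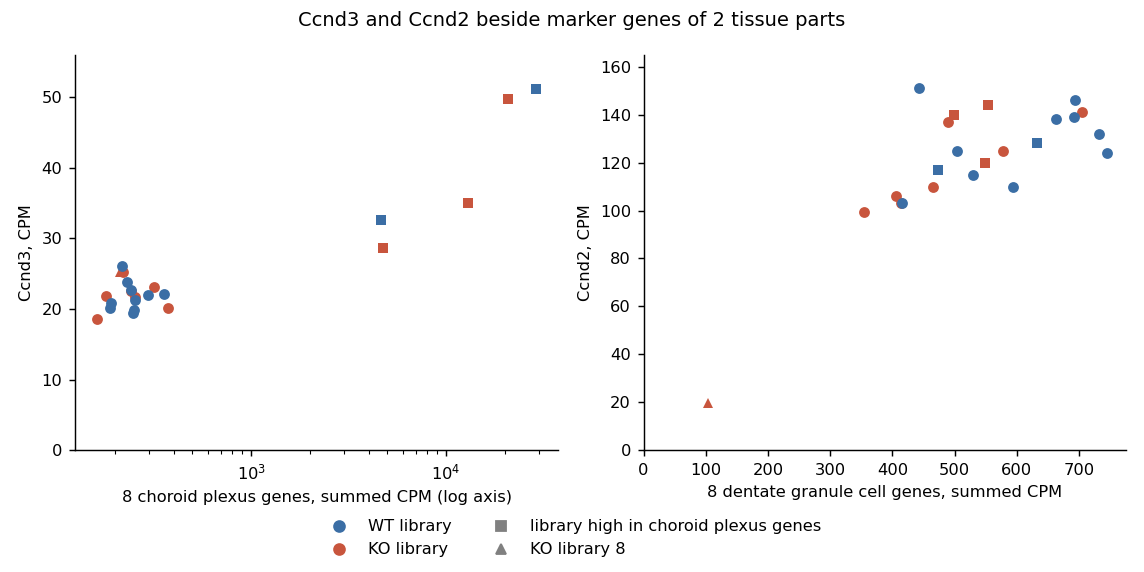
Left, Ccnd3 in CPM against the summed CPM of 8 choroid plexus genes on a log axis; right, Ccnd2 in CPM against the summed CPM of 8 dentate granule cell genes; each point is a library. The 5 squares are the highest for Ccnd3, at 28.6 to 51.1 CPM, and KO library 8 (triangle) is lowest for both Ccnd2, at 19.6 CPM, and the dentate genes, at 104 CPM.

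To set the D cyclins beside each other, counts were divided by the merged exon length of each gene and scaled to a sum of 1000000 per library, as in TPM. On this per-length scale WT libraries held 44.7 ± 5.47 of Ccnd1, 45.6 ± 5.04 of Ccnd2 and 9.59 ± 3.01 of Ccnd3 (SD, n = 12). By merged exon length Ccnd1 was thus as abundant as Ccnd2 in WT, and Ccnd2 was the higher of the pair in 7 of 12 libraries. By longest transcript Ccnd2 was higher in WT, at 54.8 ± 6.05 beside 45.4 ± 5.51 for Ccnd1 (SD, n = 12). KO libraries held 20.1 ± 2.25 of Ccnd1, 40.2 ± 12.6 of Ccnd2 and 10.2 ± 3.44 of Ccnd3 (SD, n = 11). On this scale KO library 8 had the highest Ccnd1 in KO, at 25.2. The other KO libraries had 17 to 21.6 (mean 19.6 ± 1.57, SD, n = 10).

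The sum of the D cyclins per length was 86.1 to 111 in WT (mean 99.9 ± 8.05, SD, n = 12) and 44.4 to 87.8 in KO (70.5 ± 12, SD, n = 11), which is 70.6% of the WT mean. Of the difference of 29.4 units, 24.6 were Ccnd1, which was chosen for its lower level, so the sum is a description and largely restates that choice. In 9 of 11 KO libraries the sum was below every WT library. The exceptions were KO libraries 6 and 12, at 87.8 and 86.5, both rich in choroid plexus genes. KO library 2, also rich in them, was at 69.5 and so below every WT library. Without KO library 8 the KO mean was 73.1 ± 8.70 (SD, n = 10), 73.2% of WT. The share of Ccnd1 in the sum was 38.8% to 51.5% in WT. It was 21.5% to 34.0% in 10 KO libraries and 56.7% in KO library 8, where Ccnd2 was low.

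The level of Ccnd1 differed by 24.6 units between the genotype means. A rise of the other D cyclins together by 44.6% of their WT level, a fold of 1.45, would equal that. Their sum was 55.2 ± 5.28 in WT (SD, n = 12) and 50.4 ± 13.6 in KO (SD, n = 11), or 53.5 ± 9.27 without KO library 8 (SD, n = 10). By longest transcript the rise that equals the Ccnd1 difference was 34.5%, a fold of 1.35. The intervals of the single fold changes in CPM ended at 1.16 for Ccnd2 and 1.35 for Ccnd3, at 1.07 and 1.38 without KO library 8, and at 1.03 and 1.1 without the choroid-rich libraries as well. With both genes at these limits, 10.4, 7.06 and 2.59 units would be added to their WT level, or 14.7, 10.8 and 3.74 by longest transcript, where Ccnd1 differed by 25 units. No interval was computed for the sum.

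**Figure D4:**
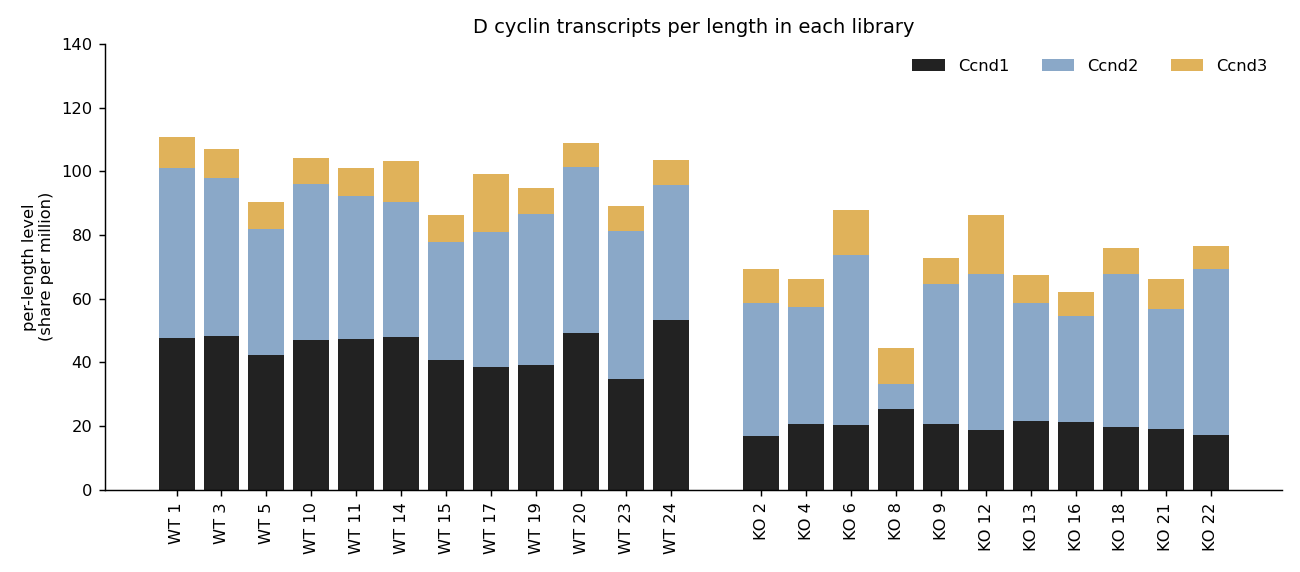
Per-length level of Ccnd1, Ccnd2 and Ccnd3 stacked in each of the 23 libraries (vertical axis, the same per-length units). The black Ccnd1 part is shorter in all KO libraries, the stacked height is 86.1 to 111 in WT and 44.4 to 87.8 in KO, and KO library 8 has little Ccnd2.

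Cdk4 and Cdk6 encode the kinase partners of the D cyclins. On the CPM scale Cdk4 was among the steadiest of the genes, at 34.3 to 40.6 CPM in WT (median 38.2 CPM) and 34.0 to 45.4 CPM in KO (median 38.7 CPM). Its 2 KO libraries above the WT range include KO library 2 at 45.4 CPM, and 1 KO library was below it. The log2 fold change was 0.02 (SE 0.0442, interval -0.07 to 0.11, edgeR adjusted p = 0.925), and its sign turned without KO library 2 (-0.0087) and without the 5 choroid-rich libraries (-0.029). In fold terms the Cdk4 interval ran from 0.95 to 1.08. Per length, Cdk4 spread more in KO, at 34.5 to 47.8 (SD 4.31, n = 11), than in WT, at 37 to 41.6 (SD 1.53, n = 12). The KO SD was 3.62 without KO library 8 (n = 10).

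Cdk6 was low, at 5.15 to 9.94 CPM in WT (median 6.23 CPM) and 2.70 to 8.87 CPM in KO (median 5.33 CPM). The lowest library was again KO library 8, and 4 of 11 KO libraries were below the WT range. KO minus WT was -0.22 (SE 0.143, interval -0.52 to 0.07, edgeR adjusted p = 0.781), and -0.15 without KO library 8. Per length, Cdk4 stood at 39.3 ± 1.53 and Cdk6 at 1.59 ± 0.339 in WT (SD, n = 12), so Cdk4 made up nearly all kinase transcript of this pair.

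CDKN1A and CDKN1B belong to the same family of inhibitors. Cdkn1b (p27) had 51.7 to 69.5 CPM in WT (median 61.3 CPM) and 51.0 to 68.4 CPM in KO (median 60.5 CPM), with 10 of 11 KO libraries within the WT range. Its log2 fold change was -0.04 (SE 0.0488, interval -0.14 to 0.06, edgeR adjusted p = 0.858). Cdkn1a (p21), a target of p53, had 3.43 to 13.2 CPM in WT (median 7.10 CPM) and 4.39 to 11.3 CPM in KO (median 6.48 CPM), all 11 KO libraries within the WT range. Its log2 fold change was -0.14 (SE 0.21, interval -0.57 to 0.30, edgeR adjusted p = 0.882), -0.23 when KO library 12 was left out and -0.046 when WT library 24 was. The biological coefficient of variation, the spread between libraries beyond counting noise, was 8.8% for Cdkn1b and 34.7% for Cdkn1a. At their expression levels the fitted trend over all genes was 15.8% and 29.2%, so that Cdkn1b lay below the trend and Cdkn1a above it.

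Rb1 and Rbl2 encode the pocket proteins RB1 and p130, which hold E2F factors inactive. Rb1 had 32.9 to 49.5 CPM in WT (median 41.5 CPM) and 32.0 to 47.3 CPM in KO (median 37.9 CPM). KO library 8 was the lowest of the 23 libraries and the other 10 KO libraries lay within the WT range. The log2 fold change was -0.11 (SE 0.0647, interval -0.25 to 0.02, edgeR adjusted p = 0.781), and -0.082 without KO library 8. Rbl2 had 45.2 to 59.7 CPM in WT (median 52.3 CPM) and 45.9 to 61.8 CPM in KO (median 50.9 CPM), with 1 KO library above the WT range. Its log2 fold change was -0.01 (SE 0.0516, interval -0.11 to 0.10, edgeR adjusted p = 0.970).

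E2f1, the E2F factor that drives S-phase genes, was low at 3.85 to 7.14 CPM in WT (median 4.69 CPM) and 1.74 to 6.57 CPM in KO (median 4.56 CPM). KO library 8 was lowest, and 10 of 11 KO libraries lay within the WT range. In log2 units the difference was -0.17 (SE 0.145, interval -0.47 to 0.13, edgeR adjusted p = 0.801), and -0.079 without KO library 8. In KO library 8 the CPM of Ccnd2, Cdk6, Rb1 and E2f1 were thus below all other libraries, while Ccnd1, Ccnd3, Cdk4, Cdkn1a, Cdkn1b and Rbl2 were inside the range of the others. This depends on the scale. Per length, its Rb1 (20.6) was inside that range, and its Cdk4 (47.8) and Rbl2 (29.9) were above all other libraries.

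Ordered by per-length level, WT hippocampus held most Cdkn1b (45.8 ± 4.68), Ccnd2, Ccnd1 and Cdk4, then Rbl2 (23.7 ± 2.27) and Rb1 (23.5 ± 3.06), then Ccnd3, Cdkn1a (7.61 ± 3.23), E2f1 (5.35 ± 0.959) and Cdk6 (SD, n = 12). Neighbours in this order overlapped in their library ranges except at 3 steps, Cdk4 over Rbl2, Rb1 over Ccnd3 and E2f1 over Cdk6. In KO the order was the same but for Ccnd1, which came after Rb1 at 20.1, with Rb1 (21.7 ± 2.11, SD, n = 11) the higher of the pair in 9 of 11 libraries. Dividing by the longest annotated transcript in place of merged exons put Ccnd2 first in WT, at 54.8 ± 6.05 (SD, n = 12). Cdk4 (50.3 ± 1.9) and Ccnd1 (45.4 ± 5.51) followed, and Cdkn1b came after them at 37 ± 3.78, so the order of the upper 4 genes depends on the length used. Ccnd3 then stood at 17.6 ± 5.65.

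The spread of Ccnd1 within a genotype gave a second view of whether the other genes were higher where it was lower. It comes from the same libraries in which Ccnd1 was chosen. Over 18 pairs (9 genes in 2 genotypes), 0 had an adjusted p below 0.05. In KO, Ccnd2 had Pearson r = -0.46 with Ccnd1 (two-sided permutation test, p = 0.152, adjusted p = 0.671, n = 11). Spearman's rho was -0.77 (two-sided permutation test, p = 0.007, adjusted p = 0.126). Without KO libraries 2 and 22, the farthest from the Ccnd1 median, r was -0.52. Without KO library 8 it was -0.65 (permutation p = 0.0404, adjusted p = 0.589, n = 10). Without the choroid-rich libraries as well, r was -0.76 (permutation p = 0.0179, adjusted p = 0.288, n = 7) and rho -0.82 (permutation adjusted p = 0.62). That r was -0.44 when KO libraries 16 and 22 were also left out. In WT, r was 0.27 (two-sided permutation test, p = 0.392, adjusted p = 0.671, n = 12) and rho 0.32 (permutation p = 0.309, adjusted p = 0.811). Without WT libraries 19 and 23, r in WT was 0.52. The difference between the genotypes was not tested.

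Dentate content also differed among the KO libraries. From the lowest to the highest Ccnd1, the dentate gene sum of the KO libraries was 705, 548, 499, 554, 490, 465, 414, 577, 104, 405 and 355 CPM. Libraries with less Ccnd1 thus mostly had more dentate RNA, with the 577 CPM of KO library 9 as the clearest exception. The part of dentate content in the relation was not tested. The other 8 genes had r of -0.37 to 0.43 in WT and -0.57 to 0.53 in KO, each with a permutation adjusted p of at least 0.671 (n = 12 and n = 11). Several of these r moved when few libraries were left out. In KO, r of Ccnd3 went from -0.18 to -0.74 without libraries 2 and 22, and r of E2f1 from -0.11 to 0.44 without library 8. Without the choroid-rich libraries and library 8 (n = 7), r of Rb1 in KO went from -0.39 to -0.84 (permutation adjusted p = 0.288). There r of Rbl2 went from -0.20 to -0.85 (permutation adjusted p = 0.349) and r of Ccnd3 to 0.50 (permutation adjusted p = 0.506). In WT, r of Cdk4 went from 0.29 to -0.42 without libraries 19 and 23. These relations rest on the libraries named.

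**Figure D5:**
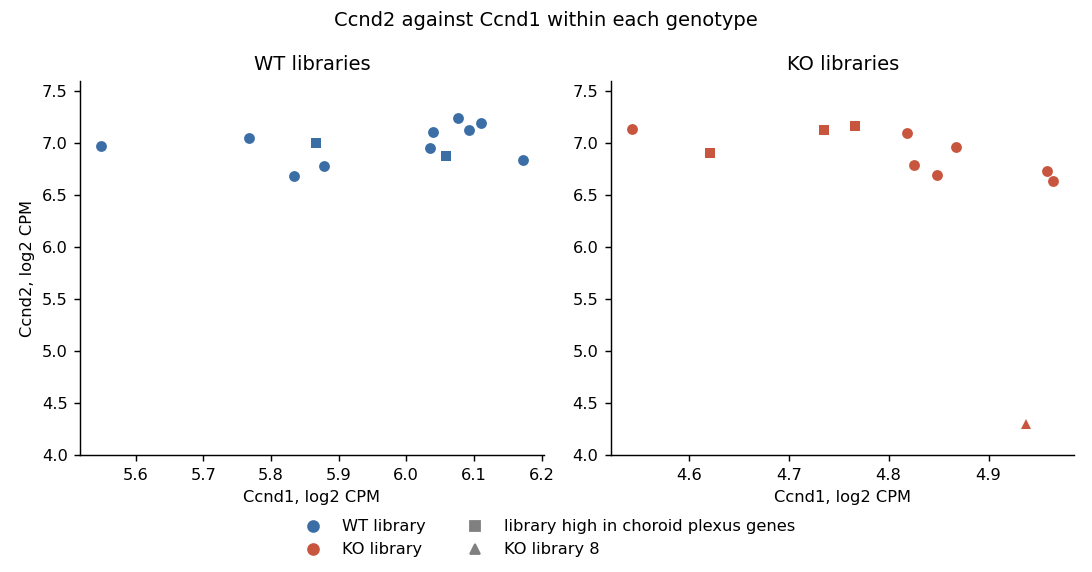
Ccnd2 against Ccnd1, both as log2 CPM, in WT libraries (left) and KO libraries (right), with 1 point for each library and separate horizontal axes. In KO the points fall from left to right (rho = -0.77), with KO library 8 far below the others; in WT they do not (rho = 0.32).

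The genes whose pattern over libraries was most like that of Ccnd1 were sought by Spearman's rho of log2 CPM, centred within genotype, among 14940 genes with a mean of at least 1 CPM. Over 23 libraries they were Atp6v0c (rho = 0.71), a subunit of the vacuolar proton pump, Gldn (0.68), Hbegf (0.67), a growth factor of the EGF family, Pkmyt1 (0.65), a kinase that inhibits CDK1, and Decr2 (0.65). Without KO library 8 they were Atp6v0c (0.79), Pgam5 (0.78), Rgs4 (0.71), Gyg (0.70) and Rspo2 (0.68). Atp6v0c was first in both, and the other names changed. Hbegf (0.68), Pkmyt1 (0.67) and Decr2 (0.65) had similar rho without KO library 8, and Gldn went to 0.53. The 9 partners had rho of -0.27 (Cdk6) to 0.21 (Rbl2) over the 23 libraries. These values describe the libraries, which differ in depth and tissue makeup, and carry no test.

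Other genes of the G1 to S step were counted next, from a list of 23, of which 19 were tested. Cdkn2a, Cdkn2b, E2f7 and E2f8 were below the filter on low counts. With edgeR 0 of 19 were called in either direction, and DESeq2 and voom also called 0. Among all 15828 genes tested, edgeR called 2 (0.0126%) and DESeq2 and voom 4 each. The median log2 fold change was -0.04. Values ran from -0.19 to 0.29 with edgeR and reached 1.44 with DESeq2. The 0.29 was that of Cdkn1c, which ran from -0.40 to 1.45 over the fits that left out 1 library. Cdkn1c varied widely within both genotypes, with 6.76 ± 13.1 CPM in WT and 8.25 ± 11.8 CPM in KO (SD, n = 12 and 11). Without the choroid-rich libraries and KO library 8, the highest edgeR value of the list was 0.14. Without adjustment, edgeR had 0 higher and 1 lower in KO at p below 0.05 (DESeq2 1 and 1, voom 0 and 3). Among all genes tested the shares higher and lower were 3.41% and 2.34% with edgeR, 3.84% and 2.32% with DESeq2, and 7.54% and 10% with voom. The edgeR gene was Mnat1, which helps form the kinase that activates CDKs, with 17.7 ± 1.17 CPM (SD) over the 12 WT libraries and 16.3 ± 1.36 CPM over the 11 KO libraries. Its log2 fold change was -0.12 (SE 0.0497, edgeR adjusted p = 0.781), and -0.09 without KO library 8, where the unadjusted edgeR p was 0.0614. The genes with the highest level were Cdc37, a chaperone of CDK4, at 125 ± 5.24 CPM in WT and 127 ± 7.84 CPM in KO, and Ccnh, the cyclin partner in the CDK-activating kinase, at 49.7 ± 2.69 and 47.9 ± 8.68 CPM (SD, n = 12 and 11).

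A list of 21 genes that E2F factors switch on for DNA synthesis and division had 17 tested genes. Cdc6, Orc1, Cdk1 and Ccnb1 were below the filter. With edgeR 0 of 17 were called (0 with DESeq2 and voom), beside 0.0126% of all genes with edgeR and 4 of 15828 with DESeq2 and with voom. At an unadjusted edgeR p below 0.05, 1 was higher and 1 lower, beside 3.41% and 2.34% of all genes tested. DESeq2 had 1 and 1, beside 3.84% and 2.32%, and voom had 2 and 1, beside 7.54% and 10%. The edgeR genes were Cdt1 (higher) and Mki67 (lower). Mki67, a marker of dividing cells, had 2.63 ± 0.395 CPM (SD) over the 12 WT libraries and 2.04 ± 0.556 CPM over the 11 KO libraries. KO minus WT was -0.37 in log2 units (SE 0.142, adjusted p = 0.781 by edgeR), and -0.29 without KO library 8 (unadjusted edgeR p = 0.0201). Cdt1, which loads the replicative helicase, had 0.576 ± 0.254 and 1.08 ± 0.581 CPM. Its difference was 0.88 in log2 units (SE 0.272, adjusted p = 0.781 by edgeR). Without KO library 8 it was 0.68 (unadjusted edgeR p = 0.00926), and 0.53 without the choroid-rich libraries as well (unadjusted edgeR p = 0.0681). Libraries overlapped for both genes, as for all but 0.0126% of genes tested. The best expressed genes of this list were Pcna, the sliding clamp of DNA polymerase, at 39.8 ± 5.44 and 42.2 ± 5.66 CPM, and Mcm6, a helicase subunit, at 17.2 ± 2.97 and 15.8 ± 3.46 CPM.

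The turnover of D cyclin proteins involves kinases and ubiquitin ligases such as GSK3B and AMBRA1. Of 14 such genes 13 were tested (Skp1 matched no symbol), and with edgeR 0 were called and 0 had an unadjusted p below 0.05, with log2 fold changes of -0.12 to 0.06. The edgeR shares among all genes were 0.0126% called and 5.74% at an unadjusted p below 0.05. DESeq2 and voom also called 0, beside 4 of 15828 over all genes for each. With voom 1 was higher at an unadjusted p below 0.05, beside its share of 7.54% higher among all genes. Ddb1, an adaptor of ubiquitin ligases, was highest, at 232 ± 14.1 CPM in WT and 236 ± 13 CPM in KO, followed by Gsk3b, at 186 ± 16.1 and 187 ± 18.4 CPM (SD, n = 12 and 11). Ambra1, the adaptor that marks D cyclins for degradation, was at 66.4 ± 3.56 and 65.1 ± 3.98 CPM.

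Among 15 transcription factors known to act upstream of Ccnd1, all tested, 0 were called with edgeR, DESeq2 or voom. Over all genes edgeR called 0.0126%, and DESeq2 and voom 4 of 15828 each. The median log2 fold change of the 15 was -0.03. Ctnnb1, the Wnt effector beta-catenin, was at 508 ± 19.2 CPM in WT and 499 ± 23.7 CPM in KO, and Egr1, an immediate early gene, at 152 ± 32.8 and 135 ± 25.3 CPM (SD, n = 12 and 11). At an unadjusted p below 0.05 edgeR had 1 higher and 0 lower, DESeq2 had 0 and 0, and voom had 1 and 3, beside shares among all genes of 3.41% and 2.34%, 3.84% and 2.32%, and 7.54% and 10% in that order. The edgeR gene was Tcf7l2, a DNA-binding partner of beta-catenin. Its log2 fold change was 0.89 (SE 0.341, edgeR adjusted p = 0.781). KO library 8 held 43.9 CPM of it against a WT range of 4.43 to 8.32 CPM, and without that library the log2 fold change was 0.37 (unadjusted edgeR p = 0.103).

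The neighbourhood of Ccnd1 on chromosome 7 held 9 other tested genes that start within 1 Mb of it, with log2 fold changes from -0.41 to 3.0. Of these edgeR called 1, Gm26793, beside 0.0126% of all genes tested. Gm26793 was higher in KO by 3.0 in log2 units (edgeR adjusted p = 0.000734), and by 2.78 without the 5 choroid-rich libraries (edgeR adjusted p = 0.0577). It was near the floor, at 0.191 ± 0.305 CPM (SD) over the 12 WT libraries and 1.74 ± 0.335 CPM over the 11 KO libraries. The WT mean was below 0.218 CPM, the level of 3 counts in the library with the smallest total, so the fold change rests on few counts. At an unadjusted edgeR p below 0.05 there were 6 of the 9 neighbours (Gm26793, Mrgprf, Ppfia1, Cttn, LTO1 and Tpcn2), beside 5.74% of all genes tested. LTO1 shares 1100 of the 4709 exonic bases of Ccnd1 on the opposite strand and had 16.2 ± 0.949 CPM (SD) over the 12 WT libraries and 17.8 ± 1.3 CPM over the 11 KO libraries. Because the authors' use of strand is not given in the sources used here, reads from these shared bases cannot be told apart. The same holds for Cdk4 and Tspan31 (641 bases), Rbl2 and Aktip (693 bases), Rb1 and Rcbtb2 (488 bases), and Ccnd3 and Bysl (361 bases). Ccnd3 also matches the pseudogene Ccnd3-ps at 96.3% identity over 881 bases, which held 19 counts over all libraries.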

How the data were processed

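Gene-level estimated counts came as 1 table from the authors, and the submitters' processing notes name bcl2fastq, STAR and mm10. The counting program and its use of strand are not given in the sources used here. Between 24.6% and 27.2% of a library's non-zero values were fractional, and how the fractions arose is not given either. Columns were matched to samples by library name, with 0 left over, and symbols to 45143 of 45706 identifiers. After rounding, edgeR 4.0.16 (R 4.3.3) was used for tests (filterByExpr, TMM, robust quasi-likelihood F test, Benjamini-Hochberg over 15828 genes, which held 99.84% of counts), after a check on simulated data. CPM use TMM-scaled totals. A count of 0 allows 3 counts, and such limits cover counting error only. For correlations the log2 CPM had 2 as prior count, with 100000 permutations (numpy 2.4.6). Similar transcripts were sought with blastn 2.17.0. Gene positions and lengths are those of GENCODE M21 (GRCm38).

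Alternatives tried were size factors by RLE, DESeq2 1.42.0, voom in limma 3.58.1, other filters, a choroid plexus covariate and leaving out libraries. The 10 genes, lists and tests were chosen with earlier results of these data known. Named were the 10 genes, Ins2, in each list the genes at an unadjusted edgeR p below 0.05 and the 2 highest, and the 5 genes most like Ccnd1. Ambra1, Cdkn1c, the genes overlapping or near the 10 and genes below the filter were named in addition, after their values were seen.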

Additional observations from a re-analysis of the deposited data

How the results depend on the processing

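No paired analysis was possible because no replicate number occurs in both genotypes. Ccnd1 was lower in KO in all 9 alternatives, with log2 fold changes of -1.16 to -1.12, and of -1.19 to -1.13 over the 23 fits that each left out 1 library. Because Ccnd1 was chosen for this difference in these same libraries, the refits describe it and do not test it. The 9 partners of Ccnd1 had 0 calls in all 9 alternatives and in all 23 fits, and each pathway list had 0 calls in the alternatives run on it. The count of called genes was 2. It was 4 with DESeq2, 4 with voom, 1 when a mean of at least 50 counts was required (fewer genes tested), 1 without the 5 choroid-rich libraries, 2 when KO library 8 was left out as well, and 2 to 3 over the fits that left out 1 library. Gm26793 had a log2 fold change of 3.0, 2.78 without the 5 choroid-rich libraries (edgeR adjusted p = 0.0577) and 2.82 without KO library 8 as well (edgeR adjusted p = 0.045), so its call was lost at nearly the same difference. Some values near 0 changed sign, and the cause was not tested. Cdk4 went to -0.029 without the 5 choroid-rich libraries and to -0.04 when KO library 8 was left out as well, where Cdkn1b went to 0.0092. Leaving out both together was an alternative added after the data were seen. Over the fits that left out 1 library, Cdk4 ran from -0.0087 to 0.034, Ccnd3 from -0.059 to 0.22 and Rbl2 from -0.032 to 0.011. The D cyclin sum in KO was 74.3% of WT by longest transcript, 73.2% without KO library 8 and 69.8% without the 6 libraries. Pairs of Ccnd1 with a partner at an adjusted p below 0.05 stayed at 0 in all alternatives run on them. E2f1, Cdk6 and Cdkn1a, with as few as 29, 45 and 65 counts in a library, have the least depth behind their values. The 29 and 45 were those of KO library 8. In the other libraries E2f1 had at least 58 counts and Cdk6 at least 83.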
